A study of Mus musculus with 12 samples.

Results

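Plasma cell genes are described here through 8 members: the transcription factors Prdm1, Irf4 and Xbp1, the surface proteoglycan Sdc1, the antibody-handling proteins Jchain and Mzb1, and the receptors Tnfrsf17 and Tnfrsf13b. The members were read through the open chromatin around them. A peak was taken as a member peak if its centre lay inside one of these genes or within 15 kb of either end, on RefSeq positions for mouse build GRCm38, and it was given to the nearest member. This gave 36 of the 75281 consensus peaks of the table, and the 8 genes are among 16935 protein-coding genes with a peak that near. Peaks were assigned to these genes by position, without their read counts.

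The table holds ATAC-seq read counts, in which the Tn5 transposase cuts and tags accessible DNA, so that more reads over a region mean more open chromatin. All 12 libraries came from bone marrow of NZO/HILtJ mice, an inbred strain that becomes obese and diabetes-prone, so the strain and its disposition are shared by every group and no lean strain is compared. There were 4 groups of 3 mice each: females and males aged 3 months, and females and males aged 18 months, with no treatment or engineered allele in the labels. The question put to the libraries was how chromatin at these genes differed between 18 and 3 months, with sex as a covariate. Each library is named below by sex and the mouse number of the labels, as in F-35, and each mouse gave 1 library. The labels' protocol describes a sort for CD3e- and CD8-positive T cells, whereas the labels of the samples themselves give bone marrow only. Of 12 T cell genes, Cd8b1 and Bcl11b had no peak within 15 kb. Cd8a, with 1 peak, was at a mean of 3.62 CPM (counts scaled to the library total, explained below). Others were well covered when summed over their peaks, such as Lck, with 9 peaks, at 131 CPM at 18 and 157 CPM at 3 months. B cell and red cell genes were well covered too. Cd79b, with 9 peaks, had 99.8 and 105 CPM, and the red cell gene Slc4a1, with 7 peaks, had 193 and 414 CPM. The libraries are called bone marrow here after the labels of the samples, and whether a sort was made was not tested. In such a mixture, fewer plasma cells and less open chromatin per plasma cell cannot be told apart. The 12 libraries came from 6 sequencing runs named in the labels, and 0 runs held both ages, so age and run cannot be told apart. At 18 months the females and the males were also in separate runs, while 2 of the 3-month runs held both sexes (F-243 with M-251, and F-244 with M-252).

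Plasma cells are the antibody-secreting end of the B cell lineage, and long-lived ones reside in bone marrow. Blimp-1, the product of Prdm1, shuts down the B cell programme, Irf4 drives and maintains the plasma cell state, and Xbp1, a factor of the unfolded protein response, enlarges the secretory machinery. The cells carry syndecan-1 (Sdc1, CD138) on the surface, and BCMA (Tnfrsf17) and TACI (Tnfrsf13b) bind the survival factors BAFF and APRIL. Several of these genes also act in other marrow cells: Xbp1 and Irf4, for example, are used by dendritic and other B lineage cells.

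A peak lay over the annotated start of Prdm1, Irf4, Sdc1 and Xbp1, and no peak lay over that of Jchain, Tnfrsf17 or Tnfrsf13b. The 250 bases before the start (RefSeq, GRCm38.p6) are printed for the first 4 because the peaks at these starts carry 2 of the calls below, and for Jchain as a start without a peak. They run 5′ to 3′ on the gene's strand and end at the base before the start. Capitals mark letters that match 1 of 8 short motifs searched on both strands. The search covered the E-box (CANNTG), the AP-1 site (TGANTCA), the core letters of a Blimp-1 site (GAAAG) and of an Xbp1 site (GACGTG), the octamer (ATTTGCAT), the NF-kB site (GGGNNTTCC), the GATA site (AGATAA) and the TATA box (TATAAA). No printed matches overlap. The windows lie at chr10:44458749-44458998 (Prdm1, minus strand), chr13:30748983-30749232 (Irf4, plus), chr12:8771146-8771395 (Sdc1, plus), chr11:5520391-5520640 (Xbp1, plus) and chr5:88527898-88528147 (Jchain, minus).
Prdm1: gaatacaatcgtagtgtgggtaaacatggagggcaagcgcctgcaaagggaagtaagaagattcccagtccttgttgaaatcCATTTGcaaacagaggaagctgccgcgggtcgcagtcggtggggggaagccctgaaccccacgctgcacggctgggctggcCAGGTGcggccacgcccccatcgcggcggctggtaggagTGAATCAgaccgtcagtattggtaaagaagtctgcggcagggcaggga
Irf4: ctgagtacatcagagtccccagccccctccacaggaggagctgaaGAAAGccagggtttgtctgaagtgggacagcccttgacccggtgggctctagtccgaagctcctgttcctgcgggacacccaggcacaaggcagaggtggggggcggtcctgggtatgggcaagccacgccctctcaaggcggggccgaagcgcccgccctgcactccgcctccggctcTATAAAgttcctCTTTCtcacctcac
Sdc1: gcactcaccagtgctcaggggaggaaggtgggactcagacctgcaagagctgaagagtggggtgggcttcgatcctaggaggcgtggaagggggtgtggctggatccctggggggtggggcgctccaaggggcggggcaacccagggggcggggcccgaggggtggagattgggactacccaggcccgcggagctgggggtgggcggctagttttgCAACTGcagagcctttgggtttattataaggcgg
Xbp1: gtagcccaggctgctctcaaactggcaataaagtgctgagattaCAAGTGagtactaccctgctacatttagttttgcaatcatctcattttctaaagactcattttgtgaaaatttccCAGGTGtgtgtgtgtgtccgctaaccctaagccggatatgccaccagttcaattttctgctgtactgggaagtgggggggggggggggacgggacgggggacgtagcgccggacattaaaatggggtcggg
Jchain: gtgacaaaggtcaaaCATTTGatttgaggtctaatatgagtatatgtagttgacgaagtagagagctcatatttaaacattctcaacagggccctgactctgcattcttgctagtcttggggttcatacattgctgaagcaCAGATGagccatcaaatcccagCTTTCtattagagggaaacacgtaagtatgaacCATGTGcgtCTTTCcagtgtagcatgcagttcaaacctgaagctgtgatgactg

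All 250 bases lay inside the start peak at Prdm1 and at Irf4, 65 of them at Sdc1 and 10 at Xbp1. The windows of Sdc1, Irf4 and Prdm1 had GC contents of 66.0%, 63.6% and 59.2%, against a median of 52.0% over all promoter windows. That of Xbp1, at 50.4%, lay below the median, and that of Jchain was the lowest of the 5 printed. Prdm1 held 15 CpG, Irf4 11, Sdc1 10, Xbp1 8 and Jchain 3, against a median of 6. Positions below are those of a motif's leftmost base, counted back from the start. The Prdm1 window held E-boxes at -168 and -87 and an AP-1 match at -48, a motif found in 6.9% of all 27025 promoter windows of that length, whereas E-boxes are in 66.0%. Irf4 held GAAAG letters at -205 and -14 and a TATA box at -26. These are in 51.4% and 13.0% of promoters. Sdc1 held 1 E-box at -34, Xbp1 E-boxes at -206 and -131, and Jchain E-boxes at -235, -109 and -54 and GAAAG letters at -87 and -45. A match is a description of letters and not a bound site.

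The 36 member peaks were 309 to 1654 bp wide, and 17 of them had their centre inside the member gene. Of the 19 outside, 7 lay nearer to another gene, and 6 of these were inside it: Tnfrsf13b peaks 6 and 7 in Usp22, Tnfrsf17 peak 2 in Snx29, Mzb1 peaks 3 and 4 in Prob1, and Mzb1 peak 5 in Spata24. Jchain peak 1 lay nearer to Enam. Peaks are numbered by increasing coordinate within each gene. Levels are given in CPM, the usual scaling of counts to the library total, here adjusted by the TMM factor, and member peaks had mean levels from 2.66 to 39.5 CPM. The floor of 3 counts, 0.235 to 0.391 CPM, was below the level of every member peak in every library, where raw counts ran from 14 to 558.

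Per kb of peak, the level over the 12 libraries was highest at Xbp1, with 16.5 ± 1.82 CPM per kb (SD, n = 12). Tnfrsf17 followed with 13.8 ± 0.927 and Prdm1 with 12.3 ± 1.2 CPM per kb. Mzb1 had 11.6 ± 1.23, Tnfrsf13b 11 ± 0.779, Irf4 9.87 ± 1.89, Sdc1 9.17 ± 1.56 and Jchain 8.17 ± 0.904 CPM per kb. No neighbours in that order were apart: the libraries' ranges overlapped between each gene and the next. The ends of the order were, with Xbp1 at 13.8 CPM per kb or more in every library and Jchain at 10.05 or less. The tallest single peak, Xbp1 peak 4 over the Xbp1 start, had 24.4 CPM per kb, against a median of 10.2 over the member peaks.

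**Figure D1:**
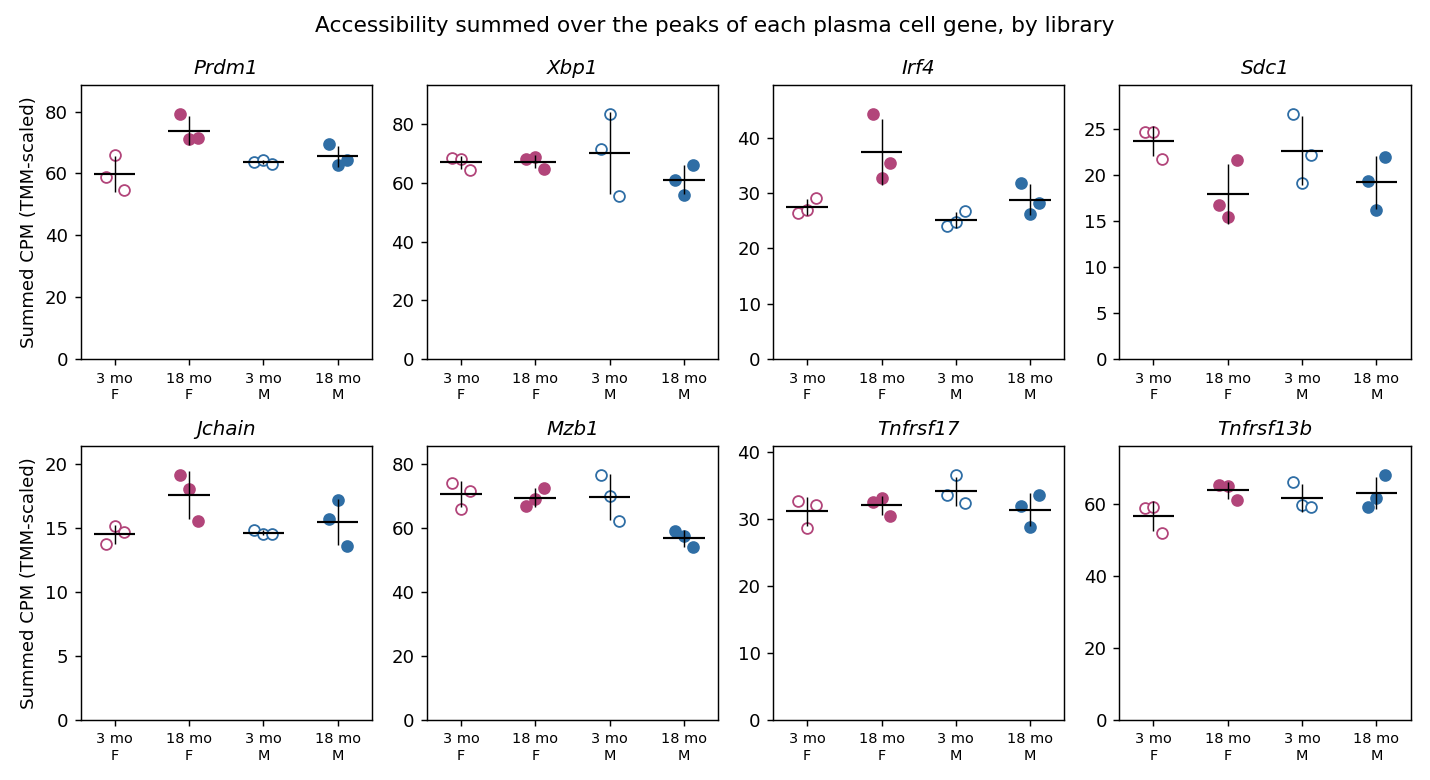
Summed CPM (y axis, TMM-scaled, from 0) over all peaks of each plasma cell gene in the 12 libraries, by age and sex (x axis; F female, M male). Points are libraries, open at 3 months and filled at 18 months, horizontal lines are means and vertical lines 1 SD (n = 3 per group). Irf4 was highest in the 18-month females (32.8 to 44.2 CPM), and Sdc1 means were lower at 18 than at 3 months in both sexes.

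Over all 75164 tested peaks, edgeR's quasi-likelihood test with Benjamini-Hochberg adjustment called 21% at an adjusted p under 0.05, 9.43% higher and 11.6% lower at 18 months. Of the 36 member peaks, 5 were higher and 1 was lower, or 16.7% called. That share is near the background and is no result about the members as a group. Irf4 peak 4 was the only member peak without overlap between ages, which holds for 7.23% of all peaks. The member peaks had log2 fold changes from -0.47 to 0.86 with a median of 0.11, against 0.02 over all peaks, and 23 of 36 were above 0, against 53% of all peaks. All 6 called peaks lay inside their gene. The member next to the threshold, Tnfrsf13b peak 3, had an adjusted p of 0.0572 and a log2 fold change of -0.39.

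Peak counts were also summed per gene. Over all 16921 tested genes 41.1% were called, 10.8% higher and 30.3% lower, with a median log2 fold change of -0.07. Of the 8 members, Irf4 and Prdm1 were called higher and Sdc1 lower, again close to the background share. The ages overlapped at all 8 members, whereas 17% of all genes had no overlap. Among all gene calls 26.3% were higher, and with libraries scaled by total counts 48.1% were. Among peak calls the share was 44.9% and became 62.8%.

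**Figure D2:**
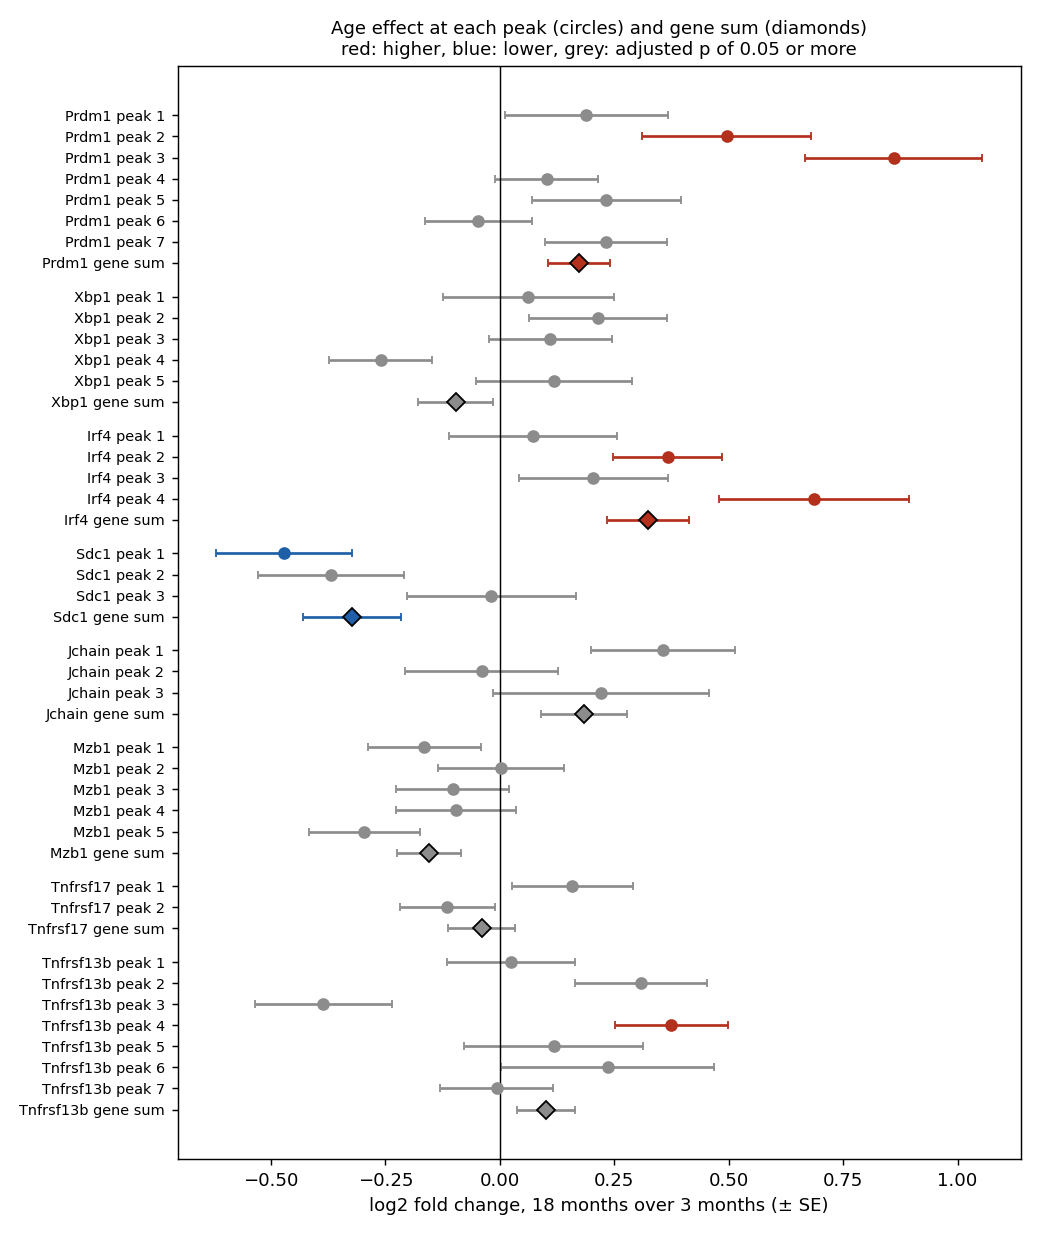
Log2 fold change at 18 over 3 months (x axis, with bars of 1 SE) for each of the 36 member peaks (circles) and the 8 gene sums (diamonds), adjusted for sex over 12 libraries. Red marks calls higher, blue calls lower and grey an adjusted p of 0.05 or more. The largest value was 0.86 at Prdm1 peak 3 and the lowest -0.47 at Sdc1 peak 1.

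Prdm1, which encodes Blimp-1, was called higher at 18 months at a pair of peaks inside the gene, peaks 3 and 2. They lie 8944 and 10546 bp past its annotated start, and the start peak was not called. Of the pair, the call held with each library left out at peak 3 only. At Prdm1 peak 3 (chr10:44449525-44450084), the 18-month libraries ran from 3.14 through a median of 6.22 to 6.41 CPM, and the 3-month libraries from 2.54 through 2.93 to 3.63. A single 18-month library, that of M-40 at 3.14 CPM, fell into the 3-month range, and the other 5 lay above it. Means were 5.55 ± 1.31 and 3.06 ± 0.439 CPM (SD, n = 6 per age), a log2 fold change of 0.86 (SE 0.193, edgeR adjusted p = 0.000913). The call at peak 3 held when each of the 12 libraries was left out, with adjusted p-values of 0.000203 to 0.00526, and ended in the male libraries alone (log2 fold change 0.80, adjusted p = 0.0794).

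Prdm1 peak 2 (chr10:44447923-44448480) lies beside it. It ran from 4.21 through 6.16 to 7.53 CPM at 18 months and from 3.17 through 4.12 to 6.25 CPM at 3 months. The ages overlapped, and the log2 fold change was 0.50 (SE 0.184, edgeR adjusted p = 0.0464). That call rested on single libraries: it ended without any one of 8 of the 12 (18-month F-35, F-36, F-42 and M-40, 3-month F-243, F-244, F-245 and M-252), with adjusted p up to 0.137. It also ended in 7 of 11 settings that did not leave out a single library, with adjusted p up to 0.711. Among these were DESeq2's test (adjusted p = 0.0585) and the male libraries alone.

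The start peak, Prdm1 peak 4 (chr10:44458373-44459564), had 16.7 ± 2.05 CPM at 18 months and 15.6 ± 1.26 at 3 months, a log2 fold change of 0.10 (SE 0.113, adjusted p = 0.563). The tallest Prdm1 peak was not at that start. The start used, that of the promoter table, lies well inside the annotated gene. Prdm1 peak 6 has its centre at -70767 bp from it, just before the upstream (5′) end of the gene as annotated, with 19.5 ± 3.15 and 20.2 ± 3.34 CPM, a log2 fold change of -0.05 (adjusted p = 0.822). The remaining 3 peaks had log2 fold changes of 0.19 to 0.23 and were not called. Summed over its 7 peaks, Prdm1 ran from 62.6 through 70.2 to 79.1 CPM at 18 months and from 54.6 through 63.5 to 66.0 CPM at 3 months. The sum had a log2 fold change of 0.17 (SE 0.0682, edgeR adjusted p = 0.0484). This call of the sum ended without 7 of the 12 libraries (18-month F-35, F-36, F-42 and M-38, 3-month F-244, F-245 and M-251), with adjusted p between 0.0247 and 0.132 over all 12. It also ended in the male libraries alone (log2 fold change 0.05, adjusted p = 0.695), with peaks within 5 kb (adjusted p = 0.100) and with DESeq2 size factors in edgeR (adjusted p = 0.0623).

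Irf4, the factor whose level rises as B cells become plasma cells, was the member with the largest gene-level increase. Its 4 peaks summed to 44.2, 32.8 and 35.3 CPM in the 18-month females and 31.8, 26.2 and 28.2 CPM in the 18-month males. At 3 months the females had 26.9, 29 and 26.5 CPM and the males 24.0, 24.7 and 26.7. The 18-month females lay above every 3-month library, while 2 of the 18-month males lay within the 3-month range. Means were 33.1 ± 6.35 and 26.3 ± 1.78 CPM (SD, n = 6), a log2 fold change of 0.32 (SE 0.0891, edgeR adjusted p = 0.00681). No single library decided this call, with adjusted p-values of 0.00372 to 0.0231 over the 12 left out. It ended in the male libraries alone (log2 fold change 0.20, adjusted p = 0.221) and with peaks within 50 kb (0.125, adjusted p = 0.192).

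At the Irf4 start, peak 2 (chr13:30748687-30749915) holds the whole printed window with its TATA box. It ran from 13.8 through 16.3 to 23.0 CPM at 18 months and from 9.93 through 13.1 to 16.0 CPM at 3 months. The highest library was 18-month F-35. The log2 fold change was 0.37 (SE 0.119, edgeR adjusted p = 0.0217). Without 18-month F-35 or M-38, or 3-month F-244 or M-251, the call ended, with adjusted p up to 0.103. Irf4 peak 4 (chr13:30766650-30767043) lies 17614 bp past the start, at the far end of the gene. It had 4.05 to 5.35 CPM (median 4.95) at 18 months and 1.45 to 3.81 CPM (median 3.26) at 3 months. This was the peak without overlap, and its log2 fold change was 0.69 (SE 0.208, edgeR adjusted p = 0.0138). Without 3-month F-245, its lowest library, the adjusted p was 0.0691. The other Irf4 peaks, 1 and 3, had log2 fold changes of 0.07 and 0.20 and were not called.

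Xbp1, which switches on chaperones and secretory genes, had the tallest member peak and no age call in the fit over both sexes. Xbp1 peak 4 over the start (chr11:5520631-5522249) ran from 31.4 through 34.4 to 42.9 CPM at 18 months and from 29.6 through 42.1 to 58.2 at 3 months. The 3-month males alone held both the lowest and the highest of those values. Means were 35.9 ± 4.75 and 43.0 ± 9.44 CPM, a log2 fold change of -0.26 (SE 0.112, edgeR adjusted p = 0.0896). Without 3-month M-252, the lowest of that group, or without 18-month F-36, this peak was called lower, with an adjusted p as small as 0.0179. Without 3-month M-253, the highest, the log2 fold change was -0.14 (adjusted p = 0.282). It was -0.08 (adjusted p = 0.537) with abundance-trend offsets, which scale each library along its trend on peak abundance, and -0.15 (adjusted p = 0.322) with peak-width offsets, which do so on width. In the female libraries alone it was -0.05 (adjusted p = 0.825) and in the male libraries alone -0.46 (adjusted p = 0.0638). The other 4 peaks had log2 fold changes of 0.06 to 0.21. The gene sum was 64.2 ± 4.84 against 68.7 ± 9.12 CPM, a log2 fold change of -0.10 (adjusted p = 0.363).

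**Figure D3:**
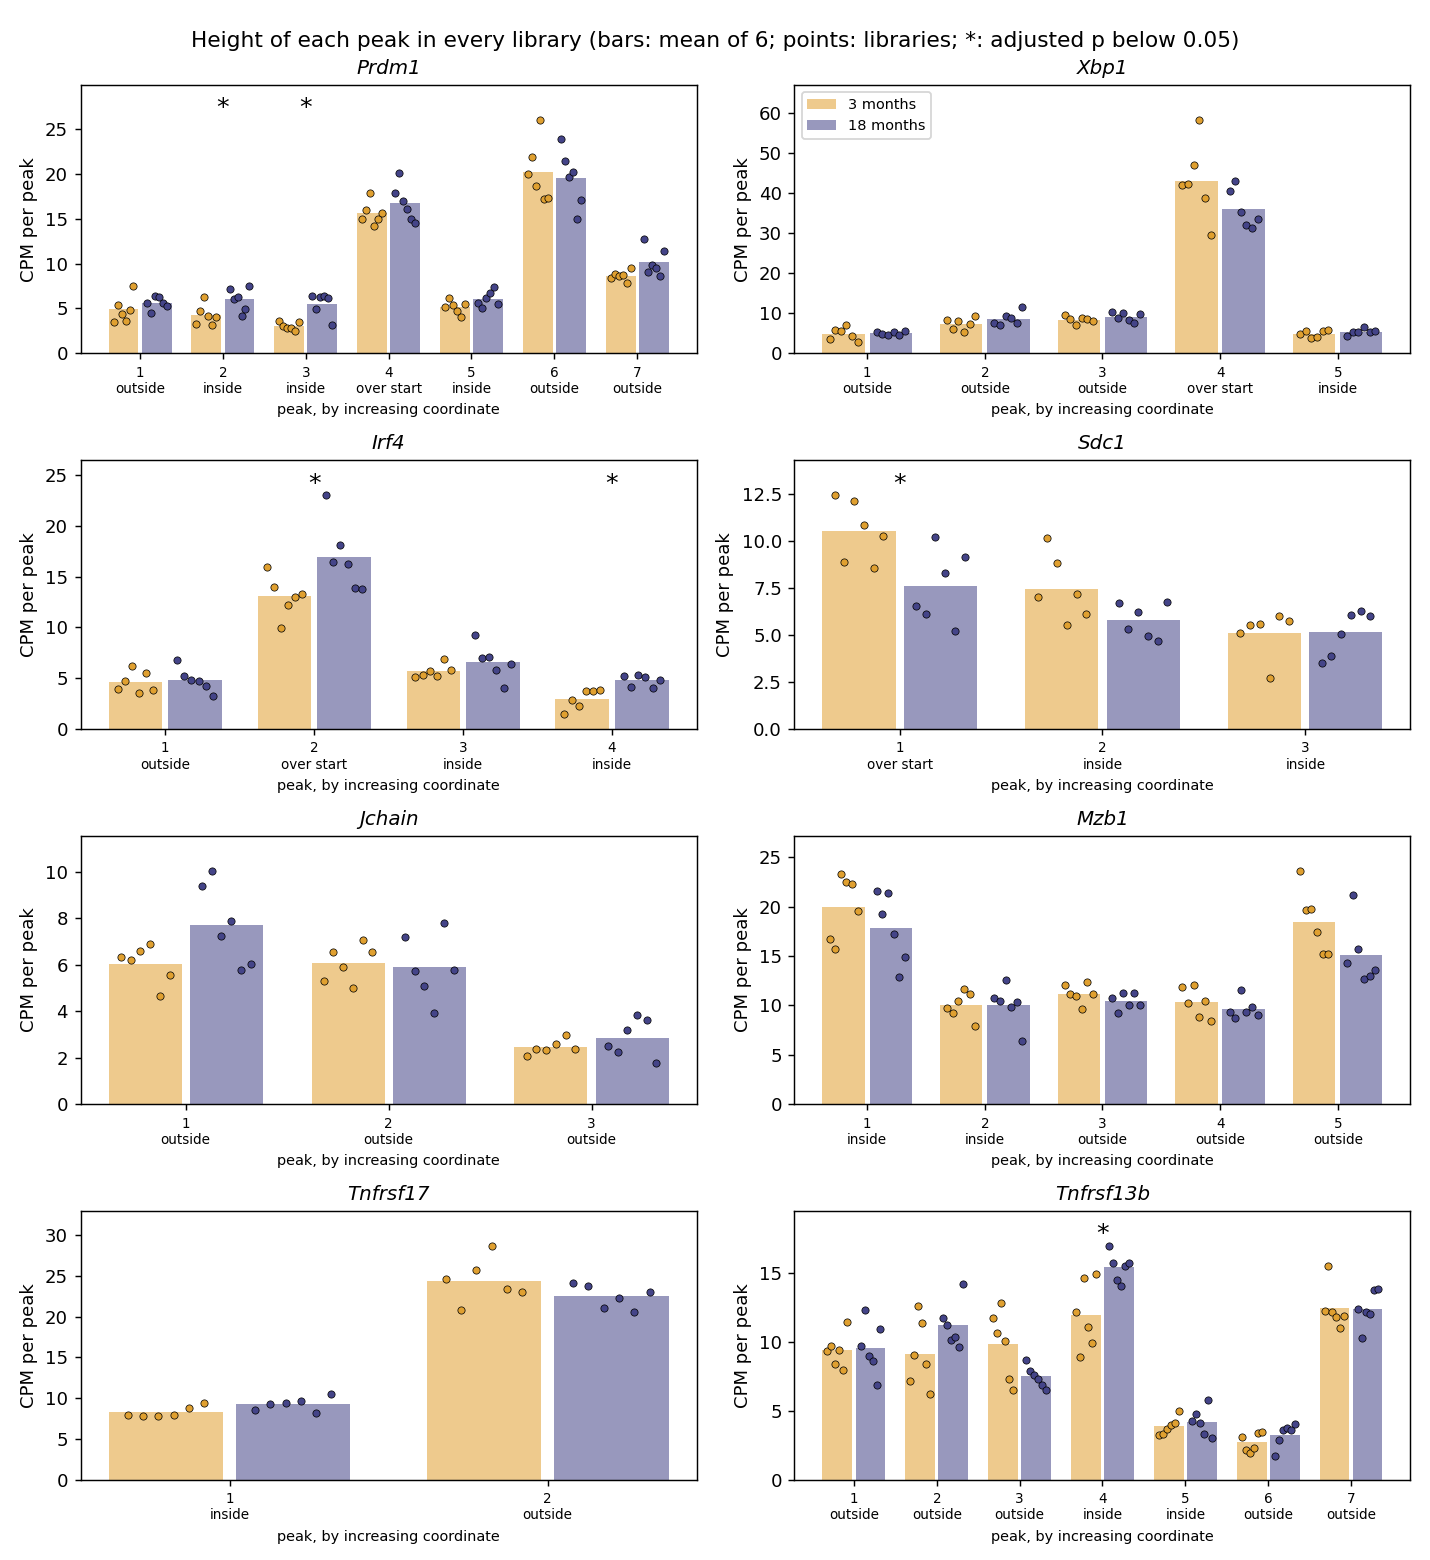
CPM per peak (y axis, from 0) at each of the 36 peaks, by gene, with peaks along the x axis in order of coordinate and marked as over the start, inside the gene or outside it (for Mzb1 no start was used). Bars are means of 6 libraries per age, points are libraries and asterisks mark edgeR adjusted p under 0.05. The asterisks stand over 6 peaks, and among them the points of the 2 ages are fully apart at Irf4 peak 4.

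Sdc1 encodes syndecan-1, the proteoglycan by which plasma cells are commonly recognised, and it was the member whose gene sum was called lower at 18 months. Sdc1 peak 1 over the start (chr12:8771331-8772288) ran from 5.23 through 7.45 to 10.2 CPM at 18 months and from 8.55 through 10.6 to 12.4 CPM at 3 months. The ages overlapped, with 4 of the 6 older libraries below every younger one. Means were 7.61 ± 1.94 and 10.5 ± 1.61 CPM, a log2 fold change of -0.47 (SE 0.149, edgeR adjusted p = 0.0185). The call ended without 18-month M-39, 3-month F-245 or 3-month M-251, with adjusted p up to 0.0789. It also ended in either sex alone, at -0.39 (adjusted p = 0.144) in the female and -0.54 (adjusted p = 0.101) in the male libraries, and with libraries scaled by total counts (adjusted p = 0.0518).

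The next peak, Sdc1 peak 2, 1513 bp past the start, had 5.79 ± 0.913 against 7.47 ± 1.73 CPM, a log2 fold change of -0.37 (adjusted p = 0.0917). Sdc1 peak 3, deep in the gene, had -0.02 (adjusted p = 0.960). The gene sum of Sdc1 was 16.8, 15.4 and 21.6 CPM in 18-month females and 19.3, 16.2 and 22 CPM in 18-month males. At 3 months it was 21.8 to 24.6 CPM in females and 19.1 to 26.6 CPM in males. The log2 fold change of the sum was -0.32 (SE 0.108, edgeR adjusted p = 0.0217), and 3 of the 18-month libraries, F-42, M-38 and M-40, lay within the 3-month range. Leaving out 18-month F-35 or M-39, or 3-month F-245 or M-251, ended the call of the sum, with adjusted p up to 0.0593, and so did scaling by total counts (adjusted p = 0.0758). With peaks within 50 kb the sum had a log2 fold change of -0.19 (adjusted p = 0.0844), and in the male libraries alone -0.23 (adjusted p = 0.281), neither called. As the mean of log2 CPM over peaks with limma it was not called either (adjusted p = 0.0810).

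Jchain encodes the joining chain of secreted IgM and IgA polymers. It had no peak over its start or inside the gene, and its 3 peaks were all outside it. Jchain peak 1, nearer to Enam, was the tallest and ran from 5.76 through 7.56 to 10.0 CPM at 18 months and from 4.65 through 6.27 to 6.89 CPM at 3 months. Its log2 fold change was 0.36 (SE 0.157, edgeR adjusted p = 0.0979), and peak 2, the nearest to a gene end, had -0.04. Peak 1 became a call with total counts (adjusted p = 0.0396) and without 3-month M-253 (adjusted p = 0.0445). The gene sum of 16.5 ± 2.00 against 14.6 ± 0.485 CPM had a log2 fold change of 0.18 (adjusted p = 0.125), and was called higher with total counts (0.26, adjusted p = 0.0347). Its sign turned with peaks within 5 kb (-0.04, adjusted p = 0.866) and within 50 kb (-0.08, adjusted p = 0.327). The older libraries, at 13.5 to 19.1 CPM, spread on both sides of the younger ones, at 13.7 to 15.1.

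Mzb1 encodes a chaperone of the endoplasmic reticulum that helps IgM assembly. Mzb1 peak 1, the tallest, ran from 12.9 through 18.3 to 21.6 CPM at 18 months and from 15.7 through 20.9 to 23.3 at 3 months, a log2 fold change of -0.16 (SE 0.123, edgeR adjusted p = 0.362). Peak 2, whose centre lies nearest to a gene end, had a log2 fold change of 0.0029 (adjusted p = 0.992). Mzb1 peak 5, inside Spata24, had the smallest age p of this gene with a log2 fold change of -0.30 (adjusted p = 0.0732), and was called lower without 18-month F-36 (adjusted p = 0.0165) or 3-month F-244 (adjusted p = 0.0212). The gene sum was 63.1 ± 7.35 against 70.1 ± 5.21 CPM, a log2 fold change of -0.15 (SE 0.0694, adjusted p = 0.0822). It was not called, and became a call without 3-month F-243 (adjusted p = 0.0347) and with peaks within 50 kb (-0.18, adjusted p = 0.00793).

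Tnfrsf17, the receptor BCMA, had a peak inside the gene and another inside its neighbour Snx29. The inner peak had 9.27 ± 0.831 CPM at 18 months against 8.28 ± 0.651 at 3 months, a log2 fold change of 0.16 (SE 0.133, edgeR adjusted p = 0.426). The peak in Snx29, the taller one, had 22.5 ± 1.46 against 24.4 ± 2.67 CPM, a log2 fold change of -0.11 (adjusted p = 0.466). Neither was called, and the log2 fold change of the gene sum was the smallest of the 8 in size, -0.04 (SE 0.0736, adjusted p = 0.693).

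Tnfrsf13b, the receptor TACI, had 7 peaks. Tnfrsf13b peak 4 (chr11:61142326-61143536), 16176 bp past the start and the tallest, had 14 to 16.9 CPM (median 15.6) at 18 months and 8.92 to 14.9 CPM (median 11.6) at 3 months. Of the 3-month libraries, M-251 and M-252 reached the older range and the other 4 lay below it. The log2 fold change was 0.37 (SE 0.124, edgeR adjusted p = 0.0242). Without 18-month F-35, 3-month F-243 or 3-month F-244 the call ended, with adjusted p up to 0.0885. The call at peak 4 also ended in the male libraries alone (adjusted p = 0.644). Peak 3, before the gene, ran the other way at -0.39 (SE 0.149, adjusted p = 0.0572), and was called lower without 3-month F-244 or M-252 and with abundance-trend or peak-width offsets, with an adjusted p as small as 0.0164. The gene sum, 63.5 ± 3.26 against 59.2 ± 4.51 CPM, had a log2 fold change of 0.10 (SE 0.0639, adjusted p = 0.213). This sum was called higher under 4 alternatives: total counts (0.18, adjusted p = 0.0155), abundance-trend offsets (0.19, adjusted p = 0.00998), peak-width offsets (0.19, adjusted p = 0.00925), and peaks in the gene body only (0.32, adjusted p = 0.0253). With peaks within 50 kb it was -0.0088 (adjusted p = 0.924).

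The age difference was also taken within each sex. In females 5 member peaks were higher and 0 lower, against 11.9% called among all peaks (5.7% higher and 6.2% lower). They were Prdm1 peak 3 (log2 fold change 0.93, edgeR adjusted p = 0.0165), Irf4 peak 4 (0.88, adjusted p = 0.0386), Prdm1 peak 2 (0.80, adjusted p = 0.0274), Jchain peak 1 (0.64, adjusted p = 0.0375) and Tnfrsf13b peak 4 (0.60, adjusted p = 0.0117). Without 18-month F-35, 0 of these 5 calls were made. Without 18-month F-36, 2 member peaks were called, without 3-month F-245 or F-243 also 2, and without 3-month F-244 only 1.

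At the gene level in females, where 25.1% of all genes were called (9.22% higher and 15.9% lower), Irf4 (0.45, SE 0.119, edgeR adjusted p = 0.00814) and Prdm1 (0.30, SE 0.0876, adjusted p = 0.0141) were higher. Prdm1 summed to 71.0 to 79.1 CPM in 18-month females and 54.6 to 66.0 CPM in 3-month females. Without 18-month F-35 neither gene was called, and without 3-month F-244 or F-245 only 1 was. Sdc1 in females had -0.41 (SE 0.149, adjusted p = 0.0505), just short of a call, and was called lower without 18-month F-42 or 3-month M-251, M-252 or M-253.

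In males 0 member peaks were higher and 2 lower, against 11.4% called among all peaks (3.21% higher and 8.18% lower). Mzb1 peak 1 was at 17.2, 12.9 and 14.9 CPM in the 18-month males and 23.3, 19.6 and 22.5 CPM in the 3-month males. Its log2 fold change was -0.53 (edgeR adjusted p = 0.0178). Xbp1 peak 4 was at 32.0, 31.4 and 33.5 CPM against 47.1, 29.6 and 58.2, a log2 fold change of -0.48 (adjusted p = 0.0240), and 3-month M-252 was the lowest of the 6. Fitted on the male libraries alone, Xbp1 peak 4 was not called (adjusted p = 0.0638) and Mzb1 peak 1 was (adjusted p = 0.0441). With total counts neither was called (adjusted p = 0.0632 and 0.0624). Without 18-month M-39 or M-40 or 3-month M-251, 0 of these calls remained, without 18-month M-38 or 3-month M-253 there was 1, and without 3-month M-252 there were 4 member peaks called lower.

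At the gene level in males, where 35.3% of all genes were called (4.99% higher and 30.3% lower), Mzb1 was lower: 53.9 to 59.1 CPM in the older males and 62.3 to 76.6 CPM in the younger. The log2 fold change was -0.29 (SE 0.0902, edgeR adjusted p = 0.0171). The call ended without 18-month M-40 or 3-month M-251, with total counts (-0.18, adjusted p = 0.111) and in the fit on the male libraries alone (-0.28, adjusted p = 0.0529). Without 3-month M-252, Xbp1 was also called lower (-0.35, adjusted p = 0.00403). In the same males Irf4 had 0.19 (SE 0.123) and Prdm1 0.04 (SE 0.0884), neither called.

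The difference of the age effects between the sexes was tested as an interaction, with 0 member peaks and 0 member genes called. Over the whole table, 0.00532% of peaks and 0% of genes were called. At an unadjusted p under 0.05 there were 3 member peaks, against 9.99% of all peaks, and 2 genes, against 15%. The smallest edgeR adjusted p among the peaks, 0.265, was at Mzb1 peak 1, where the male minus female difference was -0.72. Among genes it was 0.328, for Prdm1 (-0.26) and Mzb1 (-0.27). So the calls made in one sex and not in the other are not shown to differ between the sexes. Without 3-month M-252, 2 member peaks passed the interaction test, Xbp1 peak 4 (-0.66, adjusted p = 0.0273) and Mzb1 peak 1 (-0.79, adjusted p = 0.0380).

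**Figure D4:**
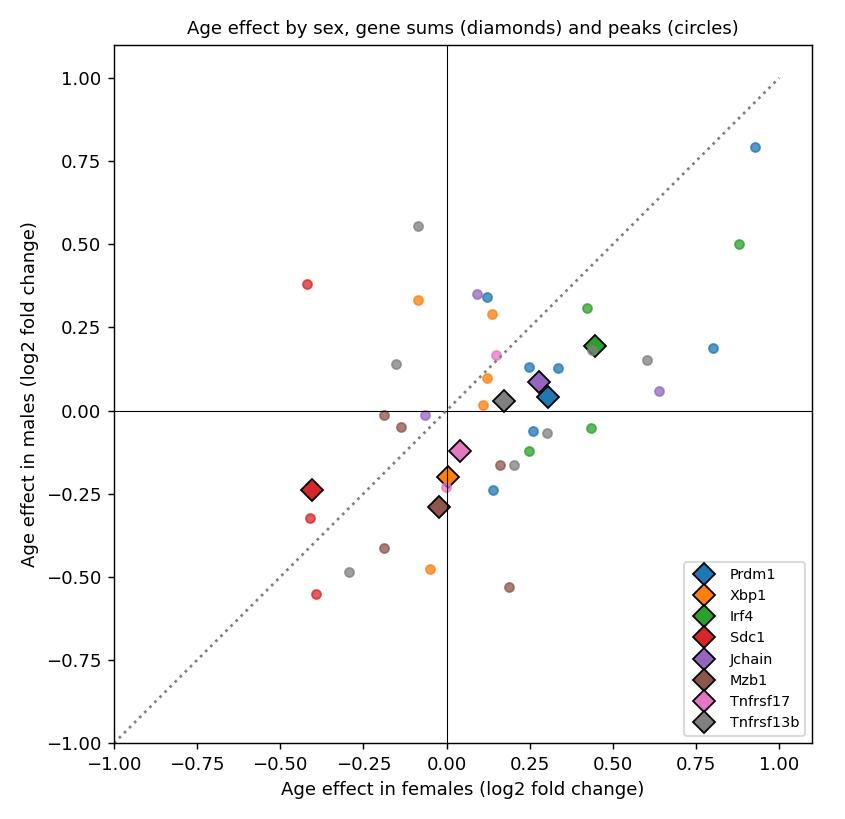
Log2 fold change at 18 over 3 months in females (x axis) and in males (y axis) for the 36 member peaks (small circles) and 8 gene sums (diamonds), coloured by gene, with the dotted line marking equal effects. Irf4 stands at 0.45 and 0.19, Prdm1 at 0.30 and 0.04, Mzb1 at -0.02 and -0.29, and 24 of the 36 peaks lie below the dotted line. Of all tested peaks 49% lie above such a line, and 0 member peaks were called in the interaction test.

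Males and females pooled over age differed at 0 member peaks and 0 member genes, where edgeR called 0.162% of all peaks and 0.29% of all genes. Unadjusted p-values under 0.05 came from 2 member peaks (7.57% of all peaks) and 2 genes (12.1% of all genes). The larger of the gene differences was Irf4, lower in males by a log2 difference of -0.26 (SE 0.0891, adjusted p = 0.284). With the sequencing run as a term, an alternative chosen after seeing the data, the sexes are compared within the 2 runs of 3-month libraries that held both. There edgeR called 0 member peaks and 0 member genes, against 0.0545% of all peaks and 0.0768% of all genes. Unadjusted p-values under 0.05 came from 1 member peak, Tnfrsf13b peak 4 (5.28% of all peaks), and 0 genes (3.72% of all genes).

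Across the 12 libraries the 8 genes did not move as a block. Of the 28 pairs of gene sums, 14 had a positive Pearson correlation, with a median r of 0.045. Prdm1 and Irf4 had r = 0.742, and 0.427 after each group's mean was removed. Jchain and Sdc1 had r = -0.785, and -0.662 within groups. Xbp1 and Tnfrsf17 had 0.628, and 0.641 within groups. These values are descriptions over libraries that share groups and runs. The gene elsewhere in the genome whose sum followed each member most closely over the 12 libraries was Gpr132 for Prdm1 (r = 0.894), Mllt6 for Irf4 (0.895) and Poln for Xbp1 (0.952). It was Vat1 for Sdc1 (0.913), Sox5 for Jchain (0.945), Wasf2 for Mzb1 (0.933), 4833439L19Rik for Tnfrsf17 (0.949) and Diras1 for Tnfrsf13b (0.858). Each is the highest of 8437 to 8459 candidates, so a high r is built into the choice.

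Around the members stand genes that feed, oppose or follow the plasma cell programme. Their counts stand beside the 10.8% of all genes called higher and the 30.3% called lower. In all genes these calls, 1831 higher and 5120 lower, became 3423 and 3324 with abundance-trend offsets, 3462 and 3459 with peak-width offsets and 3422 and 3699 with total counts. List counts under these scalings stand beside that shift of the whole table. Not all of them moved: the erythroid markers described below stayed at 12 lower and 0 higher. The part of the whole-table shift in the list counts was not tested. Among 12 genes of the B cell programme that Blimp-1 represses, 2 were higher at 18 months and 1 lower, with a median log2 fold change of -0.03 against -0.07 over all genes. Ms4a1, which encodes CD20, had 0.31 (edgeR adjusted p = 0.0211). Fcer2a, the low-affinity IgE receptor, had 0.20 (adjusted p = 0.0233), and Irf8 had -0.18 (adjusted p = 0.0361). Pax5, the keeper of B cell identity, had -0.09 (adjusted p = 0.359) and Bach2, which holds back Prdm1, 0.03 (adjusted p = 0.783). The 2 higher calls became 0 without 3-month F-243 or F-244, 1 without 18-month F-36 or F-42 or 3-month F-245, and 6 with abundance-trend or peak-width offsets. The lower call became 0 with either of these offsets or total counts, 0 without any one of 18-month M-38, M-39 and M-40 and 3-month M-251 and M-253, and 2 without 18-month F-42.

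Of 12 activators and partners of the programme, 1 was higher and 6 were lower, with a median of -0.14. Ell2, an elongation factor used for secreted immunoglobulin mRNA, had 115 ± 9.78 against 150 ± 10.6 CPM, a log2 fold change of -0.39 (SE 0.0613, edgeR adjusted p = 5.65e-05). Pou2af1, the octamer coactivator OCA-B, had -0.35 (adjusted p = 0.0473) and Ikzf1, the lymphoid zinc finger factor Ikaros, -0.25 (adjusted p = 8.49e-05). Mef2c had 0.26 (adjusted p = 0.0103). The 6 lower calls became 3 without 18-month M-38 or M-39, 3-month F-245 or 3-month M-251, and 2 with abundance-trend or peak-width offsets, under which 3 were higher, and with total counts 4 were higher and 3 lower. Without 3-month M-253, 2 were higher.

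The unfolded protein response and secretion list, the pathway Xbp1 drives, had 26 genes, of which 6 were lower and 0 higher, with a median of -0.14. These 6 of 26 are a smaller share than the 30.3% of all genes called lower. With abundance-trend offsets 6 were higher and 4 lower, with peak-width offsets 5 and 5, and with total counts 3 and 5, beside the shift of all genes given above. The 3 largest were Spcs1, a signal peptidase subunit (34.6 ± 1.83 against 46.4 ± 4.87 CPM, log2 fold change -0.42, edgeR adjusted p = 0.000112), Sec61a1, the protein channel of the endoplasmic reticulum (-0.39, adjusted p = 1.44e-06), and the co-chaperone Dnajc3 (-0.28, adjusted p = 0.00234). Ern1, the sensor that splices Xbp1 mRNA, had -0.01 (adjusted p = 0.900) and Atf6 had 0.07 (adjusted p = 0.207). Without 18-month F-36, 11 genes were lower, and without 3-month M-253, 1 was higher.

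Of 20 survival ligands, receptors and adhesion genes, Il6 and Cxcl12 had no peak. Of the other 18, 4 were higher and 3 lower, with a median of 0.03. The ligand gene Tnfsf13b (BAFF), which signals to both Tnfrsf13b and Tnfrsf17, had 26.0 ± 2.24 CPM at 18 months against 18.8 ± 3.41 at 3 months. Its log2 fold change was 0.48 (SE 0.0885, edgeR adjusted p = 0.000279), while the other ligand, Tnfsf13 (APRIL), had -0.01 (adjusted p = 0.808). Cd86 had 0.62 (adjusted p = 7.75e-05) and Cd28 0.47 (adjusted p = 0.00734). The adhesion genes Itga4 (-0.41, adjusted p = 0.000199), Itgb1 (-0.40, adjusted p = 3.68e-05) and Icam1 (-0.34, adjusted p = 8.97e-06) were lower. The higher calls were 9 with abundance-trend offsets, 8 with peak-width offsets and 2 in males alone, where the calls higher over all genes fell to 642.

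**Figure D5:**
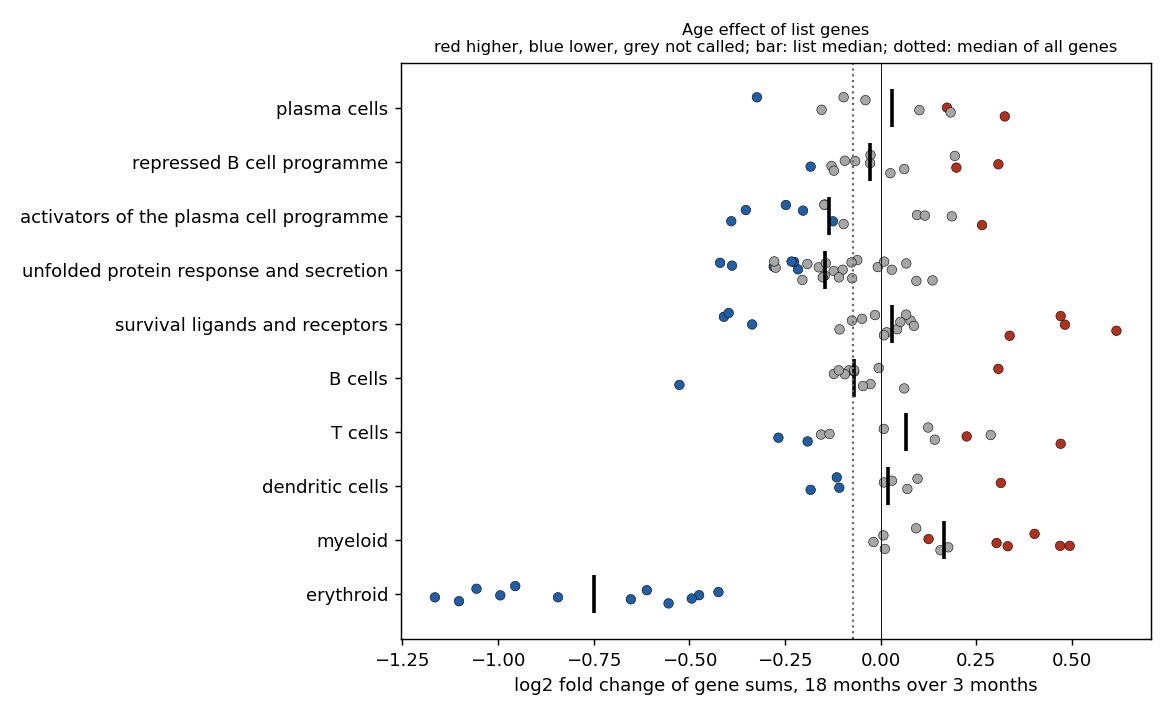
Log2 fold change of gene sums at 18 over 3 months (x axis) for the genes of each list (y axis), with red for calls higher, blue for calls lower and grey for an adjusted p of 0.05 or more. Thick bars are list medians and the dotted line is the median of all tested genes, -0.07. The plasma cell genes lie between -0.32 and 0.32 around a median of 0.03, and all 12 erythroid genes lie below 0.

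Markers of other marrow cells were counted in the same way, beside the 10.8% of all genes called higher and the 30.3% called lower. In the sums given here each peak counts once, while the calls are per gene, and neighbouring markers can share peaks: Vpreb1 and Igll1 have the same 4, so the 12 B cell markers are 11 measurements, and some peaks are shared among Cd3e, Cd3d and Cd3g, between Elane and Prtn3, between S100a8 and S100a9 and between Hbb-bt and Hbb-bs. All 12 erythroid markers were lower at 18 months, summing to 1341 to 1442 CPM against 2101 to 2552 CPM at 3 months. Of 12 myeloid markers, 6 were higher and 0 lower, summing to 1267 to 1467 against 1067 to 1478 CPM. Of 12 B cell markers 1 was higher and 1 lower (862 to 1076 against 961 to 1104 CPM), and of 8 dendritic cell markers 1 was higher and 3 lower (863 to 970 against 899 to 997 CPM). Of 12 T cell markers, 10 had a peak, and 2 were higher and 2 lower (474 to 513 against 485 to 553 CPM). The 8 plasma cell genes together summed to 326 to 392 CPM at 18 months and 336 to 377 CPM at 3 months, ranges that overlap widely. Several of the small marker counts rested on single libraries. T cell calls higher were 1 without any one of 18-month F-35, F-36 and M-40 and 3-month F-243, F-244, F-245, M-251 and M-252, and 4 without 3-month M-253. T cell calls lower were 1 without 18-month F-42 or M-39 or 3-month F-245. The B cell call higher was lost without 18-month F-36 or 3-month F-243, F-244 or F-245. Dendritic cell calls lower were 0 without 18-month M-38 and 1 without 18-month M-39, and with abundance-trend or peak-width offsets or total counts 0 were lower and 2 higher. Under the same 3 scalings, which moved the calls of all genes as given above, myeloid calls higher were 10, 10 and 9, T cell calls higher 5, 5 and 4 with 1 lower under each, and B cell calls higher 3, 3 and 1. The part of these other cells in the differences at the plasma cell genes was not tested.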

How the data were processed

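ATAC-seq libraries of bone marrow from 12 mice were used. The authors deposited a table of whole-number read counts per consensus peak, made, per the submitters' processing notes, with Trimmomatic, BWA, MACS2, DiffBind and edgeR on build mm10. The order and settings of these steps, duplicate removal and cut-site shifts are not given in the sources used here. No value is below 1, and 985 stand at 1, which compresses folds of the lowest peaks. Groups, sexes, mouse numbers and runs come from the sample titles. Depth, the total count in peaks, was 7668099 to 12756647 per library, and floors cover counting error only. Replicates differed by more than sampling noise (chi-square per degree of freedom 2.17 to 6.08), and 0 pairs were identical.

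Genes were placed by RefSeq on GRCm38.p6. Counts were tested with edgeR 4.0.16 (glmQLFit, glmQLFTest) in R 4.3.3, with TMM factors of 0.929 to 1.05, for peaks or gene sums with CPM above 1 in at least 2 libraries. The model for age and sex was additive, and effects within a sex and the interaction came from 4 group means. P-values were adjusted by Benjamini-Hochberg over all tested peaks or genes at 0.05. SE came from the F statistic. The tests were tested on simulated data. A gene sum adds the counts of all peaks centred in the gene or within 15 kb, so neighbouring genes can share peaks.

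The members and lists were chosen with earlier results of these data known. Each member's start peak, tallest peak and peak of smallest age p are named. Of each list the 3 largest calls in each direction are named, and Pax5, Bach2, Ern1, Atf6 and Tnfsf13 were named after their values were seen. Likeness was sought among genes at or above the median level on another chromosome or over 1 Mb away. Promoter windows of 7 members were matched by symbol in the RefSeq table. Alternatives changed the scaling, test (DESeq2 1.42.0, limma 3.58.1), filter, libraries, covariate and window.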

Additional observations from a re-analysis of the deposited data

Results flagged for a closer look

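The 6 libraries of each age were screened for a single library far from the others at each of the 36 peaks and 8 gene sums, 88 sets in all, and 4 stood out. Chance alone flags about 1 in 20 such sets, so 4 of 88 is no excess. At Tnfrsf13b peak 7, inside Usp22, 3-month F-243 had 15.5 CPM and the next library 12.2. At Sdc1 peak 3, 3-month M-253 had 2.71 CPM, and the other 3-month libraries had 5.08 to 6.02. At Mzb1 peak 4, 18-month F-42 had 11.6 CPM and the next library 9.81. At Mzb1 peak 5, 18-month F-36 had 21.2 CPM and the next library 15.8. None of these 4 peaks carried an age call.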

How the results depend on the processing

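No paired analysis was possible because no mouse number is shared between groups; a term for the sequencing run, possible for sex at 3 months only, added no call to the 0 of the sex comparison. No called log2 fold change of a member changed sign under any alternative that was run. Among gene sums not called, the sign turned under 3 alternatives at Xbp1, 6 at Tnfrsf17, 2 at Jchain and 1 at Tnfrsf13b. Member peaks called higher with age, 5 in the reported fit, ranged from 2 to 7 when each library was left out, and were 3 with CPM above 5 in at least 6 libraries, a filter that left 2 of the called peaks, Prdm1 peak 3 and Irf4 peak 4, untested, and 0 in males alone. The lowest counts, 2, came without 18-month F-35 or 3-month F-244, and 3 came without 3-month F-243 or F-245. Member peaks called lower, 1, ranged from 0 to 3. They were 0 without 18-month M-39, 3-month F-245 or 3-month M-251, 2 without 3-month M-253, and 3 without 18-month F-36, 3-month F-244 or 3-month M-252. They were 0 with total counts and in females alone, and 2 with abundance-trend or peak-width offsets. Within females, higher peaks, 5, ranged from 0 to 6 and lower peaks stayed at 0 (0 to 0). Within males, higher peaks, 0, ranged from 0 to 1 (1 without 18-month M-40, 3-month F-244 or 3-month M-252) and were 1 with total counts. Lower peaks in males, 2, ranged from 0 to 4 and were 0 with total counts. Interaction peaks called lower, 0, ranged from 0 to 2. Member genes called higher, 2, ranged from 1 to 2 and were 4 with total counts, 1 with DESeq2 size factors, 0 in males alone, 1 with windows of 5 kb or 50 kb, and 1 with only the peaks nearest to the gene, an alternative chosen after seeing the data. Member genes called lower, 1, ranged from 0 to 2 (2 without 3-month F-243) and were 0 with total counts, in males alone and as the mean of log2 CPM over peaks with limma. With windows of 50 kb the count stayed at 1, but the gene was Mzb1 in place of Sdc1. The 4 higher with total counts were Irf4, Prdm1, Jchain and Tnfrsf13b. With abundance-trend offsets, peak-width offsets or peaks in the gene body only, Tnfrsf13b was called higher beside Irf4 and Prdm1, which kept their calls. Genes higher in females, 2, ranged from 0 to 2 and genes lower in females, 0, from 0 to 1. Genes lower in males, 1, ranged from 0 to 2 and were 0 with total counts. The cause of these shifts was not tested. Prdm1 peak 2 also lost its call with DESeq2 size factors, DESeq2's own test, limma-voom, abundance-trend and peak-width offsets, no filter, and in males alone. Sdc1 peak 1 lost its call with total counts and in either sex alone. Irf4 peak 2, Irf4 peak 4, Prdm1 peak 3 and Tnfrsf13b peak 4 lost theirs, among settings other than leaving a library out, in males alone.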
